A study of Mus musculus with 18 samples.

Results

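The genes described are 10 targets of the transcription factor ATF4 that supply amino acids and one-carbon units: Asns, Phgdh, Psat1, Psph, Shmt2, Mthfd2, Slc7a5, Slc3a2, Slc7a1 and Slc38a2. They were chosen by name and not by a measured value, but with earlier results of these data known. Of the 10, 9 had a locus that names no other gene among the 51499 loci of the deposited table. All 9 had a mean of at least 1 FPKM over the groups, as did 11929 loci in all. FPKM is the number of sequenced fragments scaled for transcript length and for library size. Slc7a5 was not analysed here.

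The cells were mouse embryonic fibroblasts (MEFs) labelled Ago2+/+ or Ago2-/-. AGO2 is the Argonaute protein that cuts target RNA in RNA interference. Cells had grown for 3 days and were then given the solvent DMSO, tunicamycin, an inhibitor of N-glycosylation that loads the endoplasmic reticulum (ER) with misfolded proteins, or 500 nM thapsigargin, an inhibitor of the calcium pump of the ER. Each of the 6 groups (Ago2+/+ DMSO, Ago2+/+ tunicamycin, Ago2+/+ thapsigargin, Ago2-/- DMSO, Ago2-/- tunicamycin and Ago2-/- thapsigargin) comprised 3 libraries, 18 in all. The lines had been received as a gift and had not been authenticated, which limits them as a model of the loss of AGO2, although a western blot had been used to test the Ago2-/- cells for the protein. The table holds the authors' single pooled FPKM for each group, so no value below carries a replicate error, no difference could be tested, and sequencing depth is unknown. Where 3 values are given for a genotype label, they stand in the order DMSO, tunicamycin, thapsigargin.

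The labels can be checked against Ago2 and against sex-linked genes. The Ago2 message stood at 22.1, 5.75 and 17.0 FPKM for the label Ago2+/+ and at 5.61, 15.5 and 20.7 FPKM for the label Ago2-/-. The lowest levels were thus found in one group of each genotype label. The Y-linked gene Ddx3y was at 23.3 FPKM in Ago2+/+ thapsigargin and 24.7 in Ago2-/- tunicamycin and listed at 0 in the other groups. The locus holding Xist, a transcript of the inactive X chromosome, reached 46.6 FPKM in Ago2+/+ DMSO and 33.5 in Ago2-/- thapsigargin and was at most 0.0574 elsewhere. These levels go against the labels, and the genotype labels of 4 libraries conflict among themselves. The library titles also name the groups labelled Ago2+/+ after DCR1. Pooled values gave no way to leave a library out. Groups are therefore named by their labels only, and every direction given below rests on those labels. Fibroblast markers summed to 3004 to 3956 FPKM, with 9 of 12 at a mean of at least 1 FPKM. The highest in each group was Vim (952 to 2634) or the locus of 3 genes that holds S100a4 (285 to 1967). Other markers were low: Thy1 was listed at 0 in every group, and Dcn and Lum reached at most 1.06 and 0.0138 FPKM. Pdgfra was at 0.488 in Ago2+/+ tunicamycin and 0.903 in Ago2-/- DMSO, and at 2.62 to 8.72 elsewhere. Postn was listed at 0 in Ago2+/+ DMSO and Ago2+/+ tunicamycin. It was at 0.0169 in Ago2-/- DMSO and 0.0251 in Ago2-/- thapsigargin, and at 4.77 and 10.1 in Ago2+/+ thapsigargin and Ago2-/- tunicamycin. Col1a1, the collagen chain, ranged from 5.97 FPKM in Ago2-/- DMSO to 651 in Ago2-/- tunicamycin. Markers of epithelial cells summed to 0.205 to 2.01 FPKM, of leukocytes to 1.17 to 1.9 with Adgre1 and Cd3e listed at 0, of endothelium to 0.121 to 0.465, and of pluripotent cells to at most 5.98, nearly all of it Sox2 in Ago2+/+ tunicamycin and Ago2-/- DMSO.

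ATF4 is the effector of the integrated stress response. Stress kinases, among them the ER sensor PERK and the amino acid sensor GCN2, phosphorylate the initiation factor eIF2, which slows translation in general while the Atf4 message is translated more. ATF4 then binds, with a C/EBP partner, composite elements in genes that import amino acids, charge tRNAs and make asparagine, serine and glycine, so that protein synthesis can resume. The members fall into enzymes of asparagine and serine synthesis, mitochondrial folate enzymes that take one-carbon units from serine, and carriers in the plasma membrane.

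The core of the C/EBP-ATF response element, TGATGNAA, was searched on both strands of RefSeq promoters (GRCm38.p6, 250 bases before to 50 bases after each start). RefSeq gave 11 promoters for 9 of the 10 members, and 1 of the 11, that of Asns, held the letters. Among all 32851 promoters, 1304 (3.97%) held them. Shown here, 5′ to 3′, are the 100 bases before a RefSeq start of the members with the widest range over the groups: Asns (chr6:7693210-7693309, minus strand), Phgdh (chr3:98339970-98340069, minus strand) and Slc3a2 (chr19:8713898-8713997, minus strand). Capitals mark the match.
Asns: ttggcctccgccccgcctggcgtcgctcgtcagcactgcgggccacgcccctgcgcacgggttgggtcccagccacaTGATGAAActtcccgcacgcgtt
Phgdh: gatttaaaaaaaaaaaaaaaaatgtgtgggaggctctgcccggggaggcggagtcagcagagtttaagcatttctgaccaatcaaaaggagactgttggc
Slc3a2: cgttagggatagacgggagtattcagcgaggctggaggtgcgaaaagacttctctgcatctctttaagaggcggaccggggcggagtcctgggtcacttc
In Asns the match lay 23 to 16 bases before the start (chr6:7693225-7693232). For Phgdh, Slc3a2 and the others, the absence of a match says only that these letters are not in this window.

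The members were strongly expressed, and most varied less over the groups than the median locus. Their mean levels over the groups lay above those of 90.1% (Slc7a1) to 98.7% (Phgdh) of the loci tested. The ratio of the highest to the lowest group was 1.34 at the median of the 9 members (1.18 to 2.04), against 1.74 over all loci tested. As these are bulk samples, fewer cells that express a gene and less RNA per cell cannot be told apart. The ratio passed 2 in 1 of 9 members, Phgdh, and 1.5 in 3 of 9, with Asns and Slc3a2, whereas 38.0% of all loci passed 2 and 68.3% passed 1.5. The loci tested reach down to a mean of 1 FPKM, and no set of loci matched to the members in level was compared.

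**Figure D1:**
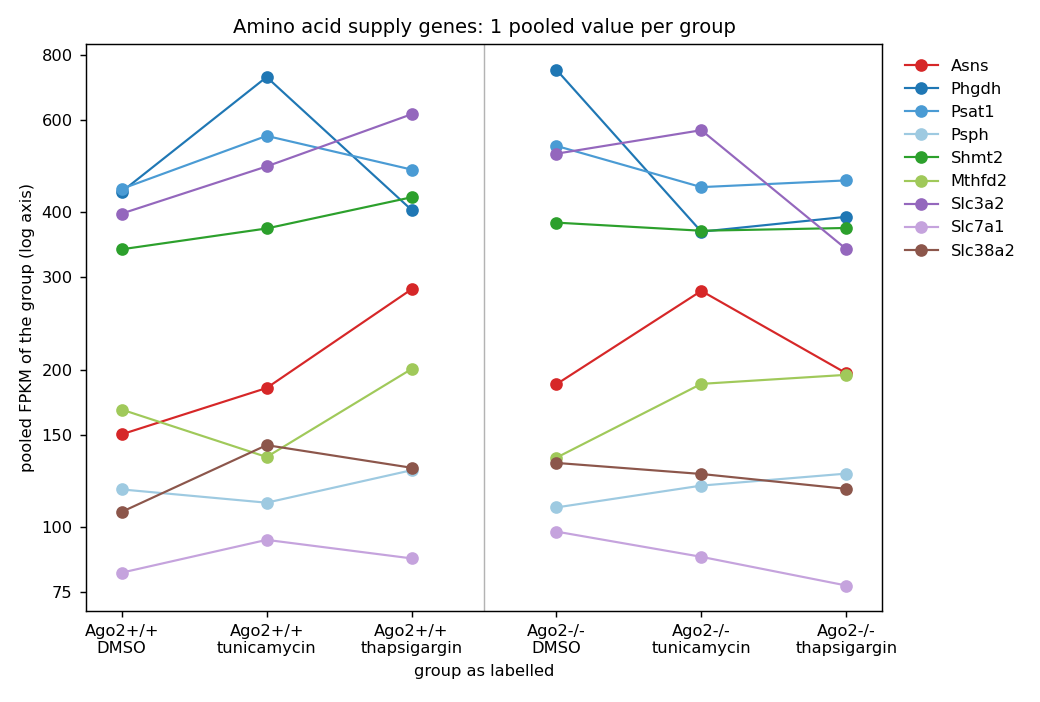
Pooled FPKM of the 9 genes (log axis) in the 6 groups as labelled, 1 point per gene and group, with lines only to guide the eye within a genotype label. Phgdh stands highest, at 725 and 748.5, in Ago2+/+ tunicamycin and Ago2-/- DMSO, and Asns, at 285 and 283, in Ago2+/+ thapsigargin and Ago2-/- tunicamycin.

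**Figure D2:**
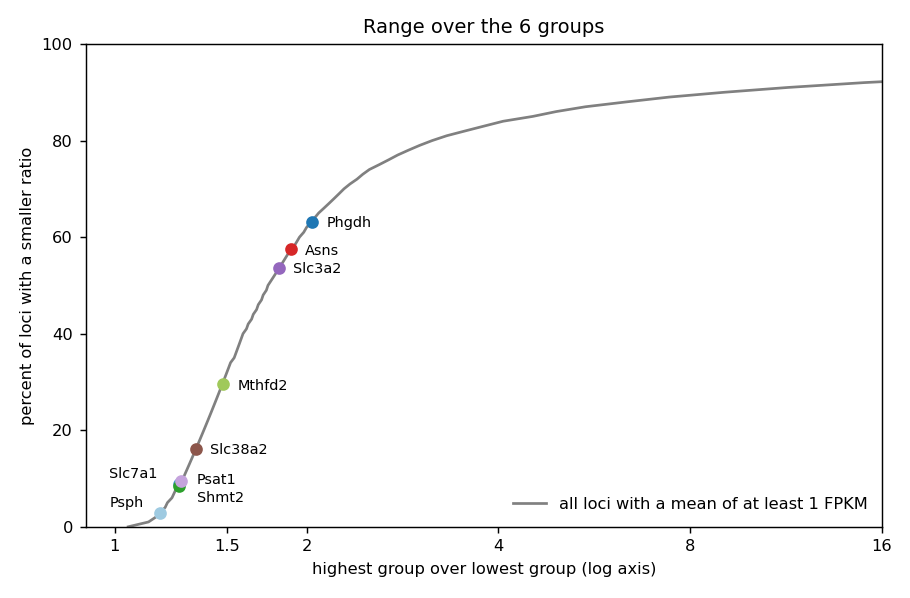
Ratio of the highest to the lowest of the 6 groups (log axis) against the percent of loci with a smaller ratio, for all 11929 loci tested (line) and the 9 genes (points). Psph, Shmt2, Psat1 and Slc7a1 lie between 2.9% and 9.44%, and Phgdh, the most variable member, at 63.2%.

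Asns (ENSMUSG00000029752, chromosome 6, 7675169 to 7693254, minus strand, GRCm38) encodes asparagine synthetase, which makes asparagine from aspartate and the amide of glutamine. It was at 150.4, 184 and 285 FPKM in the Ago2+/+ groups, and at 187.5, 283 and 197 FPKM in the Ago2-/- groups. Ago2+/+ thapsigargin and Ago2-/- tunicamycin stood above the rest, 0.7% apart, and the next group below them was 1.44 times lower. The log2 ratios of tunicamycin and thapsigargin to DMSO were 0.29 and 0.92 in the Ago2+/+ groups and 0.59 and 0.07 in the Ago2-/- groups, the last being neighbouring groups only 5.0% apart. Asns was the member with the widest gap over DMSO in the groups labelled Ago2+/+. The same pair of groups was the one in which Ddx3y was detected; the part of this in the level of Asns was not tested.

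Phgdh (ENSMUSG00000053398, chromosome 3, 98313170 to 98339990, minus strand) encodes phosphoglycerate dehydrogenase, which draws a glycolytic intermediate into serine synthesis. It was at 438, 725 and 404 FPKM in the Ago2+/+ groups. In the Ago2-/- groups it was at 748.5, 367 and 392 FPKM. Ago2+/+ tunicamycin and Ago2-/- DMSO were thus high and within 3.3% of each other, while the other groups lay between 367 and 438, below them by a gap of 1.66-fold. These are the groups with the lowest Ago2, whose part in the level of Phgdh was not tested. Relative to DMSO, Phgdh was higher under tunicamycin in the Ago2+/+ groups (log2 ratio 0.73) and lower in the Ago2-/- groups (-1.03), a difference of -1.76. Under thapsigargin the log2 ratios were -0.12 and -0.93. Phgdh has 12 processed pseudogenes at least 95% identical to it over at least 200 bases, 10 of them with a locus in the table, so its value is uncertain to the extent that reads were split between copies. Their summed level ran from 18.7 to 67.5 FPKM, and the highest of them, Gm7901 (98.7% identical), was at 34.0, 32.3 and 19.6 FPKM in the Ago2+/+ groups and at 34.5, 17.3 and 42.2 in the Ago2-/- groups.

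Psat1 (ENSMUSG00000024640, chromosome 19, 15904678 to 15947337, minus strand) encodes the aminotransferase of the next step. Its level was 443, 559.5 and 482 FPKM in the Ago2+/+ groups and 535, 446.5 and 459.9 FPKM in the Ago2-/- groups. Its 2 highest groups were those of Phgdh, but its range was only 1.26-fold. Over the 6 groups Psat1 and Phgdh moved together, with Pearson's r of 0.92 and Spearman's rho of 0.6 on the log2 scale, and the ratio of Phgdh to Psat1 ran from 0.822 in Ago2-/- tunicamycin to 1.4 in Ago2-/- DMSO.

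Psph (ENSMUSG00000029446, chromosome 5, 129765558 to 129787449, minus strand) encodes the phosphatase that releases serine in the last step. It had the narrowest range of the members, 1.18-fold, at 118, 111 and 128 FPKM in the Ago2+/+ groups, and 109, 120.0 and 126.5 FPKM in the Ago2-/- groups. Neighbours in the order of its groups were 1.5% to 6.0% apart. Its lowest groups were the highest of Phgdh, so that r between both genes was -0.88 (rho -0.77) and the ratio of Phgdh to Psph ran from 3.06 to 6.87. The pooled levels of the serine enzymes did not run in parallel: the first enzyme ranged over 2.04-fold, the last over 1.18-fold. With gaps this small, the order of the Psph groups, and so the sign of this r, is uncertain. The 5′ end of Psph overlaps that of Cct6a on the opposite strand by 452 bases. The locus quantified for Psph runs on to base 129846371, the end of Cct6a, and so spans that gene, which is also listed by itself. Cct6a was at 315 to 509 FPKM, and without knowledge of the library strand reads of the shared bases cannot be told apart. How far reads of Cct6a enter the value of Psph was not tested.

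Shmt2 (ENSMUSG00000025403, chromosome 10, 127517123 to 127522444, minus strand) encodes the mitochondrial enzyme that splits serine into glycine and a one-carbon unit carried by folate. It was at 339.6, 372 and 427 FPKM in the Ago2+/+ groups, and at 382, 368.5 and 373 FPKM in the Ago2-/- groups. The middle 4 groups lay within 368.5 to 382 FPKM and cannot be ordered without an error. The locus quantified for Shmt2 starts at base 127514967, the start of Ndufa4l2 on the opposite strand. Ndufa4l2 is also listed by itself, at 0.0162 to 0.211 FPKM. Mthfd2 (ENSMUSG00000005667, chromosome 6, 83305691 to 83325908, minus strand) encodes the mitochondrial dehydrogenase and cyclohydrolase that oxidises that one-carbon unit. It was at 168, 136 and 200.5 FPKM in the Ago2+/+ groups and at 136, 188 and 195 FPKM in the Ago2-/- groups. Mthfd2 was thus lowest in Ago2+/+ tunicamycin and Ago2-/- DMSO, the groups in which Phgdh was highest, and r between Mthfd2 and Phgdh was -0.96, the most negative of the 36 pairs of members. The ratio of Shmt2 to Mthfd2 ran from 1.91 to 2.81 (r 0.28, rho 0.26). Within the Ago2-/- groups Mthfd2 was higher under both stressors (log2 ratios 0.47 and 0.53), whereas in the Ago2+/+ groups it was lower under tunicamycin (-0.30) and higher under thapsigargin (0.26).

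Slc3a2 (ENSMUSG00000010095, chromosome 19, 8706882 to 8723369, minus strand) encodes the heavy chain that carries several amino acid exchangers, among them the leucine transporter SLC7A5, to the plasma membrane. Its level was 397, 489 and 615 FPKM in the Ago2+/+ groups and 517, 574 and 340.0 FPKM in the Ago2-/- groups. Both extremes were thapsigargin groups, highest under Ago2+/+ and lowest under Ago2-/-, 1.81-fold apart. The log2 ratio of thapsigargin to DMSO was 0.63 under Ago2+/+ and -0.61 under Ago2-/-, a difference of -1.24. Under tunicamycin the ratios were 0.30 and 0.15.

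Slc7a1 (ENSMUSG00000041313, chromosome 5, 148327410 to 148399904, minus strand) encodes a carrier of arginine and lysine. It had the lowest level per length of the members, at 81.8, 94.5 and 87.1 FPKM in the Ago2+/+ groups, and 98.0, 87.7 and 77.3 FPKM in the Ago2-/- groups. Slc38a2 (ENSMUSG00000022462, chromosome 15, 96687392 to 96699730, minus strand) encodes a sodium-coupled carrier of small neutral amino acids, which includes glutamine. It was at 107, 143 and 129.8 FPKM in the Ago2+/+ groups and at 133, 126 and 118 FPKM in the Ago2-/- groups. Both carriers were higher under each stressor than under DMSO in the Ago2+/+ groups and lower in the Ago2-/- groups, by at most 1.34-fold, and their neighbouring groups differed by 0.7% to 10.7%. The ratio of Asns to Slc38a2 ran from 1.29 to 2.24 (r 0.36, rho 0.09).

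**Figure D3:**
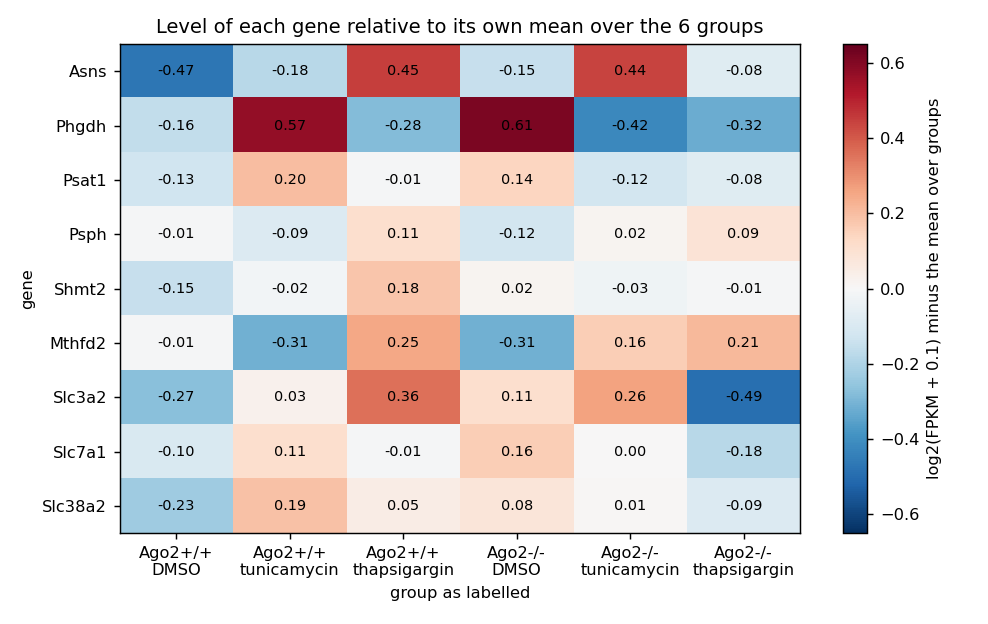
log2(FPKM + 0.1) of each gene minus its own mean over the 6 groups, with the value in each cell (red above, blue below the mean). Phgdh (0.57 and 0.61) and Mthfd2 (-0.31 in both) are opposite in Ago2+/+ tunicamycin and Ago2-/- DMSO, and Slc3a2 reaches -0.49 in Ago2-/- thapsigargin.

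The first question was how the levels of these genes under each stressor label compare with DMSO. In every comparison of stressor or genotype label, the groups also differ in Ago2, Xist or Ddx3y. The part of the stressor or genotype therefore cannot be told apart from other differences between the cells. Ratios were computed as log2(FPKM + 0.1), and a locus was called when it lay past 2-fold. In the groups labelled Ago2+/+, 0 of 9 members lay past 2-fold under tunicamycin, against 17.9% of all loci. Past 1.5-fold lay 1 of 9, Phgdh, against 33.4%. Of the 9 members 7 were above their DMSO level, with a median log2 ratio of 0.29 against 0.006 for all loci. Under thapsigargin with the same genotype label, 0 of 9 lay past 2-fold (16.8% of all loci). Past 1.5-fold lay 2 of 9, Asns and Slc3a2 (31.9%). Here 8 of 9 members were above DMSO, all but Phgdh, with a median of 0.26 against 0.012. Mthfd2 and Psph under tunicamycin and Phgdh under thapsigargin were the members below DMSO.

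Under the label Ago2-/- the direction was not shared. With tunicamycin, 1 of 9 members, Phgdh, was past 2-fold and lower, against 22.0% of all loci, and 2 of 9 were past 1.5-fold, Asns higher and Phgdh lower, against 41.2%. The median log2 ratio of the members was -0.05 against 0.0 over all loci, with 4 above and 5 below DMSO. With thapsigargin, 0 of 9 were past 2-fold (18.0% of all loci) and 2 of 9, Phgdh and Slc3a2, were past 1.5-fold and lower (35.7%). The median was -0.16 against -0.02, with 3 members above DMSO, namely Asns, Psph and Mthfd2, and 6 below. The comparisons of both stressors share their DMSO group, so a DMSO value that is off moves both in the same direction.

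The second question was whether the levels differ between the genotype labels. Under DMSO, the Ago2-/- over Ago2+/+ ratio passed 2-fold in 0 of 9 members (18.0% of all loci) and 1.5-fold in 1 of 9, Phgdh at 0.77 on the log2 scale (33.9%), with a median of 0.27 against 0.008. Under tunicamycin 0 of 9 passed 2-fold (21.4%) and 2 of 9 passed 1.5-fold (40.2%), Asns at 0.62 and Phgdh at -0.98, with a median of -0.01 against -0.003. Under thapsigargin 0 of 9 passed 2-fold (17.4%) and 1 of 9 passed 1.5-fold (32.6%), Slc3a2 at -0.86. In this last comparison all 9 members were lower in the group labelled Ago2-/-, by -0.02 for Psph to -0.86, with a median of -0.13 against -0.029 over all loci. Psph thus lay above the median of all loci, and Phgdh and Mthfd2, both at -0.04, lay close to it.

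The third question was whether the change under stress differs with the genotype label. The difference of the tunicamycin changes, Ago2-/- minus Ago2+/+, passed 2-fold in 1 of 9 members, Phgdh at -1.76, against 39.3% of all loci, and 1.5-fold in 3 of 9 against 60.1%. The other 2 were Mthfd2 at 0.77 and Psat1 at -0.60. For thapsigargin 1 of 9 passed 2-fold, Slc3a2 at -1.24, against 31.0% of all loci, and 3 of 9 passed 1.5-fold against 50.7%, with Asns at -0.85 and Phgdh at -0.82. The median difference was -0.18 for tunicamycin and -0.43 for thapsigargin, against -0.016 and -0.026 over all loci. In each of the 9 comparisons the share of members past either fold was thus below that of all loci. These comparisons reuse the same 6 pooled values, and 1 of 9 members is already 11.1%. The loci tested also reach down to a mean of 1 FPKM. With a mean of at least 5 FPKM, 10.8% to 33.1% of loci passed 2-fold.

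**Figure D4:**
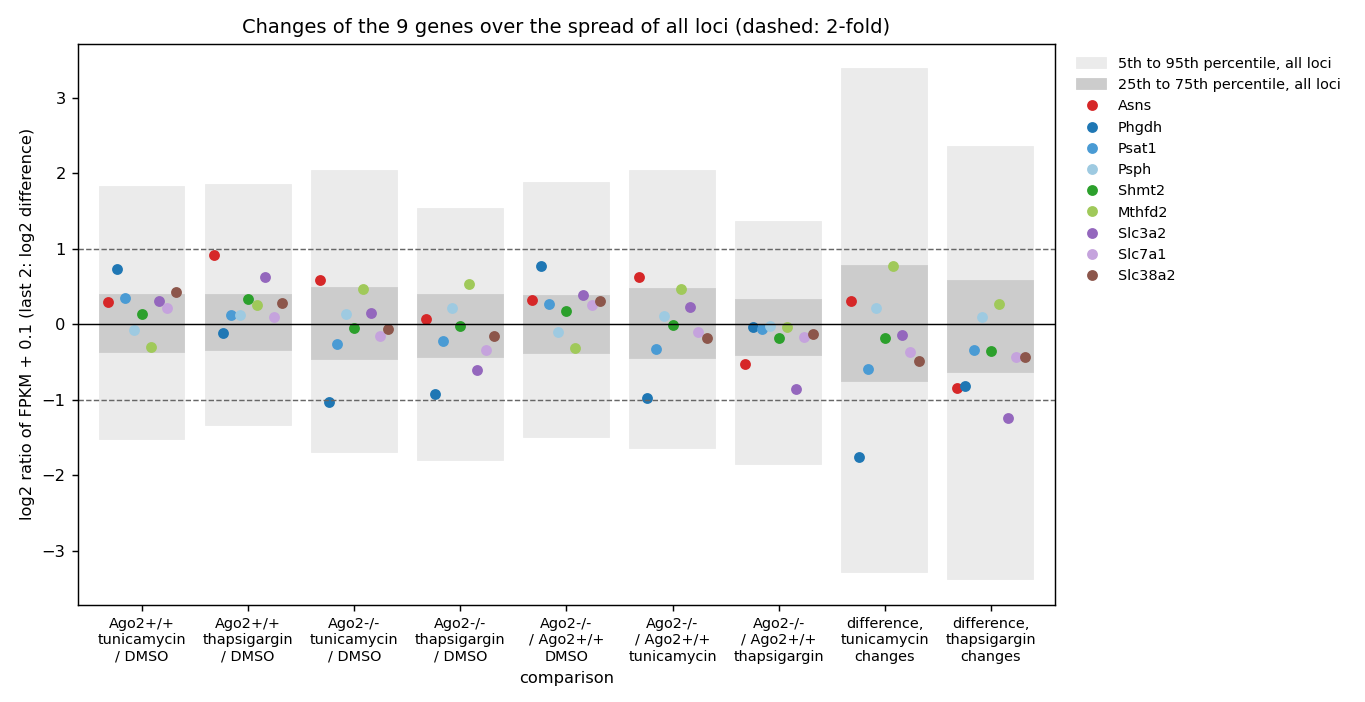
log2 ratio of each gene (points, 9 per column) in the 7 comparisons, and log2 differences of the stress changes in the last 2 columns, over the 5th to 95th and 25th to 75th percentiles of all loci tested (light and dark bars); dashed lines mark 2-fold. Only Phgdh, at -1.03 and -1.76, and Slc3a2, at -1.24, lie past the dashed lines.

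The likeness of the groups was then compared over all loci, as a description. Of the 15 pairs of groups, 3 stood apart by Spearman's rho over the loci tested: Ago2+/+ tunicamycin with Ago2-/- DMSO, Ago2+/+ thapsigargin with Ago2-/- tunicamycin, and Ago2+/+ DMSO with Ago2-/- thapsigargin, at 0.977 to 0.985. The other 12 pairs, which include every comparison above, lay at 0.876 to 0.906. By their widest difference the members followed the same pairs. That difference was 1.08-fold (Slc38a2), 1.16-fold (Shmt2) and 1.31-fold (Asns) in those 3 pairs in the order given. In the other 12 it was 1.66-fold to 2.04-fold. The median difference of the members overlapped, at 1.03-fold to 1.11-fold in the 3 pairs and 1.07-fold to 1.24-fold in the 12. All 3 pairs join groups that differ in genotype label and in treatment, and each pair was alike in the genes that check the labels. Ago2 was at 5.75 and 5.61 FPKM in the first pair, Ddx3y at 23.3 and 24.7 in the second, and the Xist locus at 46.6 and 33.5 in the third. Whether the group names of the table match the labelled libraries was not tested.

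The members did not form 1 pattern over the groups. Of their 36 pairwise correlations over the 6 pooled values 23 were positive and 13 negative, with a median r of 0.29, and the highest was that of Psph with Mthfd2 at 0.97. The 6 groups fall into 3 close pairs, so neither these nor the correlations between genes given above rest on 6 independent points. Averaged over the 9 members, the centred log2 level was -0.17, 0.06 and 0.12 in the Ago2+/+ groups and 0.06, 0.04 and -0.11 in the Ago2-/- groups. Ago2+/+ DMSO and Ago2-/- thapsigargin were therefore the low groups of the mean.

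Atf4 itself had the profile most like the mean of the members among the 4 stress genes plotted beside it. It was at 394, 528 and 583 FPKM in the Ago2+/+ groups and at 532, 575 and 407 FPKM in the Ago2-/- groups, a range of 1.48-fold. Over the 6 groups its r with the mean of the members was 0.96 and with Slc3a2 0.95, but 0.18 with Phgdh and -0.08 with Mthfd2. Ddit3, the stress factor CHOP, was abundant in all groups including DMSO, at 237, 282 and 344.5 FPKM in the Ago2+/+ groups and 339, 349 and 253 in the Ago2-/- groups (r with the mean 0.88). Trib3, a pseudokinase induced by ATF4 and CHOP, was at 118.5, 146 and 106 FPKM and at 119, 105.5 and 105 FPKM in the same order, with r of 0.11. Hspa5, the ER chaperone BiP, was at 4808, 6746 and 5367 FPKM and at 7682, 5155 and 3677 FPKM, 2.09-fold from lowest to highest, with r of 0.63. Hspa5 was thus highest in Ago2-/- DMSO and lowest in Ago2-/- thapsigargin. All these correlations rest on 6 points that share their libraries with the members. As the groups fall into 3 close pairs, the points are not independent. Messenger levels also say nothing of ATF4 protein, which is set mainly at translation.

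**Figure D5:**
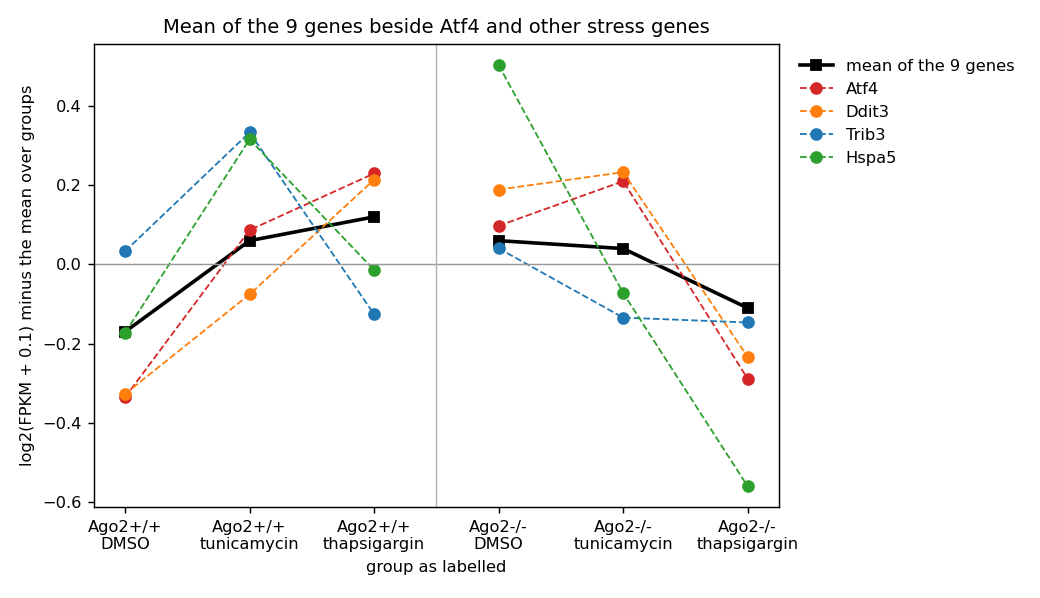
log2(FPKM + 0.1) minus the mean over the 6 groups for the average of the 9 genes (black squares) and for Atf4, Ddit3, Trib3 and Hspa5 (coloured points), with lines only to guide the eye within a genotype label. The black line and Atf4 are both lowest in Ago2+/+ DMSO and highest in Ago2+/+ thapsigargin, and Hspa5 spans the widest range.

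Other genes of the pathway were counted from lists, among the 11929 loci tested. The shares of all loci past 2-fold to read these counts against are 17.9% and 16.8% for tunicamycin and thapsigargin in the Ago2+/+ groups and 22.0% and 18.0% in the Ago2-/- groups. Of 18 regulators of the integrated stress response, 0 were past 2-fold under either stressor in the Ago2+/+ groups, 1 was higher and 1 lower under tunicamycin in the Ago2-/- groups, and 0 were past it under thapsigargin there. The widest ranges were those of Eif2ak3, which encodes PERK (6.4 to 20.8 FPKM, highest in Ago2-/- tunicamycin), the ATF4 partner Cebpb (14.2 to 43.0, highest in Ago2-/- DMSO) and Atf5 (57.2 to 112, highest in Ago2-/- thapsigargin). Of 10 ER chaperone targets, 1 and 2 were past 2-fold and higher under tunicamycin and thapsigargin in the Ago2+/+ groups. In the Ago2-/- groups 0 were past it under tunicamycin and 3 were lower under thapsigargin, with a median log2 ratio of -0.83 against -0.02 over all loci. Those 3 were Dnajb9, Creld2 and Hspa5. The widest ranges of the list were those of Creld2 (102 to 467 FPKM), Dnajb9 (9.05 to 35.7) and Hyou1 (139.6 to 368), each lowest in Ago2-/- thapsigargin, as Slc3a2 was, and highest in Ago2-/- tunicamycin.

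Among 18 listed enzymes of other amino acid pathways, 17 reached a mean of at least 1 FPKM. Past 2-fold, 1 was higher and 2 lower under tunicamycin (17.9% of all loci in either direction) and 0 and 1 under thapsigargin (16.8%) in the Ago2+/+ groups, and 1 and 1 (22.0%), and 2 and 1 (18.0%), in the Ago2-/- groups. Bcat1, which transaminates branched-chain amino acids, was at 101, 2209 and 196 FPKM in the Ago2+/+ groups and at 2347, 184 and 135 FPKM in the Ago2-/- groups, a 23.3-fold range with the same 2 high groups as Phgdh. Ass1, of arginine synthesis, was lowest in those groups (0.547 and 0.785 FPKM) and highest in Ago2+/+ DMSO (12.8). Glul, glutamine synthetase, ran from 14.6 FPKM in Ago2-/- DMSO to 39.3 in Ago2-/- thapsigargin.

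Of 22 other amino acid transporters 18 reached that mean. In the Ago2+/+ groups 4 were higher and 2 lower past 2-fold under tunicamycin (17.9% of all loci in either direction) and 5 and 0 under thapsigargin (16.8%), and in the Ago2-/- groups 4 and 4 (22.0%), and 2 and 3 (18.0%). Slc7a2, a carrier of cationic amino acids like Slc7a1, was listed at 0 in Ago2+/+ DMSO and Ago2-/- thapsigargin and reached 5.58 FPKM in Ago2-/- DMSO. Slc43a1, a carrier of large neutral amino acids, was at 3.77 and 3.99 FPKM in Ago2+/+ thapsigargin and Ago2-/- tunicamycin and at most 0.222 elsewhere, and the glutamate carrier Slc1a3 ran from 0.193 to 2.61 FPKM. Of 17 other folate genes 14 reached the mean, with 0 and 0, 0 and 1, 1 and 1, and 1 and 0 higher and lower past 2-fold in the 4 stress comparisons in the same order. Shmt1, the cytosolic counterpart of Shmt2, ran from 32.4 to 68.5 FPKM, and the locus that holds Mthfs with other genes from 0.47 to 2.05.

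Genes most like the members were sought among 2904 other single-gene loci with at least 1 FPKM in every group and a range of at least 2-fold. By Pearson's r over the 6 groups, Klra4 (0.997), Eef1g (0.995), Srm (0.988), 5033430I15Rik (0.985) and Stbd1 (0.985) followed the mean of the members most closely. Eef1g, a subunit of a translation elongation factor, was at 455, 815 and 931.5 FPKM in the Ago2+/+ groups and at 769, 723 and 512 FPKM in the Ago2-/- groups. For Asns the closest were Tmsb4x (0.994), 1810058I24Rik (0.992), Tgfb3 (0.991), Slc36a4 (0.989) and Tnc (0.986). Slc36a4, an amino acid transporter, was at 3.39, 4.96 and 10.7 FPKM and at 5.18, 12.3 and 4.95 FPKM in the same order. With 6 points in 3 close pairs, 44 and 48 of the 2904 loci reached r of at least 0.95 with the mean and with Asns.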

How the data were processed

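The authors aligned reads with HISAT2 2.1.0 to GRCm38 with Ensembl release 91, assembled transcripts with StringTie 1.3.4d and quantified them with Cuffdiff 2.2.1 (versions from the submitters' processing notes; FastQC 0.11.7 is also listed). Library scaling and strand: not given in the sources used here. In the deposited table of 772485 rows, each locus and each of 15 pairs of groups has the FPKM of both groups, pooled by the authors over 3 libraries. Its columns of the authors' fold changes, test statistics, p-values and q-values were not used. Whole reads could not be recovered from the low values, so depth is unknown.

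Here, log2(FPKM + 0.1) was compared between groups for loci whose mean reached 1 FPKM, with Python 3.11.15, pandas 2.3.3, numpy 2.4.6 and scipy 1.17.1. No test was possible. The functions were tested on simulated data. Near copies were sought with blastn in GENCODE transcripts. Named genes were the members, the 3 widest-ranging of each list (1 of the folate list is not reported here), Atf4, Ddit3, Trib3, Hspa5, the label checks and the 5 most alike; Cct6a, Gm7901, Col1a1, Thy1, Sox2 and other markers were named after their values were seen. The members and lists were chosen with earlier results of these data known.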

Additional observations from a re-analysis of the deposited data

Results flagged for a closer look

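The changes of 2 members went in opposite directions past 1.5-fold in the groups with different genotype labels. For Phgdh under tunicamycin the log2 ratio to DMSO was 0.73 in the groups labelled Ago2+/+ and -1.03 in those labelled Ago2-/-, a difference of -1.76. For Slc3a2 under thapsigargin it was 0.63 and -0.61, a difference of -1.24. Neither difference was tested, since each group has 1 pooled value, in which single libraries cannot be seen. Of all loci, 39.3% and 31.0% differed past 2-fold in the same comparisons, whatever the direction of each change. The share of all loci with changes in opposite directions, each past 1.5-fold, was not computed, so the count of 2 has no like background.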

How the results depend on the processing

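With a pseudocount of 1 or 0.01, or with ratios centred on their median over the loci tested, the number of members past 2-fold was unchanged in all 9 comparisons. The median log2 ratios of the members moved by at most 0.029. With a fold of 1.5, the number of members was 1 and 2 for tunicamycin and thapsigargin under Ago2+/+, 2 and 2 under Ago2-/-, 1, 2 and 1 for genotype under DMSO, tunicamycin and thapsigargin, and 3 and 3 for the differences of changes. With a fold of 3 it was 0 for tunicamycin under Ago2-/- and 0 for the difference of the thapsigargin changes, and otherwise as with 2-fold. These counts move because the fold itself is the threshold. The percent of all loci past 2-fold ran from 15.1 to 32.2 without a filter on low values, from 10.8 to 33.1 with a mean of at least 5 FPKM and from 16.9 to 39.5 over loci that name 1 gene. No paired analysis was possible because each group has 1 pooled value, and for the same reason leaving out single libraries, the 4 with conflicting labels among them, was not run. Depth and replicate spread are unknown, so small differences between neighbouring groups cannot be ordered.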
